A study of Mus musculus with 71 samples.

Results

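The T cell receptor gene segments made up 259 of the 25579 rows in the expression tables of 31 samples of mouse bone marrow pro-B cells and progenitors. They were chosen by name and gene class alone, without any measured value: 240 were Ensembl genes whose GENCODE M21 name begins with Tra, Trb, Trg or Trd and whose class is a T cell receptor segment, and 19 were rows whose symbol begins with TCRB_, which stand for parts of the β locus. By locus there were 189 rows of Tra (α chain), 54 of Trb (β chain), 5 of Trg (γ chain) and 11 of Trd (δ chain). Tables of 17 samples of lymphoid progenitors and thymocytes held 201 members among 24420 genes, namely 164 of Tra, 23 of Trb, 5 of Trg and 9 of Trd, but no TCRB_ row. The β and δ constant regions were therefore not analysed in thymocytes. Another 12 rows of the same gene class carry other names, mostly of the form Tcrg-, and lay outside this choice.

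T cell receptors are heterodimers of α and β or of γ and δ chains. Each variable domain is assembled during thymocyte development by the RAG1 and RAG2 recombinase, which joins a V, a J and, in the β and δ loci, a D segment at recombination signal sequences made of a heptamer, a spacer and a nonamer. Before they are joined, segments in accessible chromatin are also transcribed as germline RNA, and a spliced transcript of either kind carries the constant region. Pax5 is the transcription factor that commits lymphoid progenitors to the B cell lineage and holds down genes of other lineages.

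The study altered Pax5 in C57BL/6 mice and asked what its individual domains do. Pro-B cells came from Pax5(+/+) mice (5 samples) and, with 2 samples each, from mice without the octapeptide (DOP), the partial homeodomain (DHD) or both, and from mice without 1 or both of the C-terminal regulatory domains CRD1 and CRD2, either on both alleles, as in Pax5(DCRD1,2/DCRD1,2), or opposite a null allele, as in Pax5(DCRD1,2/-). Progenitors were Vav-Cre Pax5(fl/fl) (2 samples), in which Cre driven by Vav regulatory elements deletes Pax5 from the haematopoietic stem cell onwards. A separate experiment compared 2 samples each of Vav-Cre Pax5(fl/+), Vav-Cre Pax5(fl/fl) and Vav-Cre Pax5(Prd/fl), the last carrying a Pax5 allele reduced to its DNA-binding paired domain. The wild type thymic series ran from lymphoid-primed multipotent progenitors of the bone marrow (LMPP, 2 samples) through the CD4- CD8- double-negative stages DN1, DN2a and DN2b (3 samples each) to DN3a and DN3b (2 samples each), with 2 samples of DN3a cells from Rag2(-/-) mice, which lack an active recombinase. Mice were 3 to 5 weeks old in the sorts shown for Pax5(DCRD1/-) and Pax5(DCRD1,2/-), and for the other sequenced samples an age was not given in the sources used here. In each of DN1, DN2a and DN2b, 2 of the 3 samples carry the same replicate number and may be repeats of 1 replicate. Their values differ and they were counted as separate samples, so p-values at these stages may be too small.

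The gate was not the same for all genotypes. The pro-B cells of Pax5(+/+), DOP, DHD, DCRD1 and DCRD2 mice were sorted by the pro-B gate, which took Kit+ B220+ cells that lacked CD2, IgM and IgD. The DCRD1,2 genotypes, the progenitors and the Vav-Cre Pax5(Prd/fl) and Vav-Cre Pax5(fl/fl) samples of the separate Prd experiment were sorted as B220+ Ly6D+ cells with high Kit and no lineage marker (the Lin- Ly6D+ gate), and the lineage cocktail removed cells with surface CD3, CD4, CD8a or TCRβ. The Vav-Cre Pax5(fl/+) controls of that experiment were labelled as pro-B cells, without the alternative gate. Genotype and gate therefore cannot be told apart where DCRD1,2 or progenitor samples are set against Pax5(+/+), or Vav-Cre Pax5(Prd/fl) and Vav-Cre Pax5(fl/fl) against Vav-Cre Pax5(fl/+), whereas the gate was shared between DCRD1,2 cells and progenitors, and between Vav-Cre Pax5(Prd/fl) and Vav-Cre Pax5(fl/fl). Read length as sequenced also differed. Progenitors and Pax5(DCRD1/DCRD1) had 50-base reads, the other mutants and the Prd experiment 100-base reads, and Pax5(+/+) both. Progenitors thus differed from DCRD1,2 cells in read length, and the fitted term for it rests on Pax5(+/+) alone. In bulk samples, fewer cells of a kind and less RNA per cell cannot be told apart.

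Depth lay between 10018823 and 43785257 assigned reads per sample in the 31 tables, and was lowest in progenitor replicate 2. The defining T cell gene Cd3e reached at most 0.438 TPM (transcript abundance scaled for gene length and depth) in any of them and Ptcra, the pre-T cell receptor α chain, at most 0.407 TPM. Cd247, the signalling ζ chain of the receptor, was at 1.20 to 2.10 TPM in Pax5(+/+) cells, 6.05 and 7.42 TPM in Pax5(DCRD1,2/-) cells, and 17.1 and 25.8 TPM in progenitors. A list of 11 genes of the T cell receptor complex that are not gene segments summed to 236 to 298 TPM in Pax5(+/+), 587 to 639 TPM in progenitors and 13932 to 14077 TPM in wild type DN3a cells. The DN3a values came from another genome build and aligner and from unlabelled values, so they are not on the same scale. Of the 9 such genes tested with limma, 5 were higher and 0 lower in progenitors than in Pax5(+/+) cells, where 18.8% of all genes were higher and 16.1% lower. How far other cell types in the sorts contribute to the segment values was not tested.

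The D segments, which lie whole between 2 heptamers, are the shortest members and are shown because reads over them come from RNA that spans them. Capitals mark the segment and lower case the 7 flanking bases on each side, in GRCm38.
Trbd1 (chr6:41533194-41533219, plus strand): cattgtgGGGACAGGGGGCcacggtg
Trbd2 (chr6:41542156-41542183, plus strand): cattgtgGGGACTGGGGGGGCcacaatg
Trdd2 (chr14:54122219-54122248, plus strand): caccgtgATCGGAGGGATACGAGcacagtg

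The J segments below had the most reads of their kind or carried a result described further on. Capitals mark the nonamer and then the heptamer, which are separated by a 12-base spacer, and the coding segment follows in lower case.
Trbj1-7 (chr6:41535614-41535687, plus strand): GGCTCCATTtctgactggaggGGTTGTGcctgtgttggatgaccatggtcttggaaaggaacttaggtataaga
Trbj2-6 (chr6:41543570-41543645, plus strand): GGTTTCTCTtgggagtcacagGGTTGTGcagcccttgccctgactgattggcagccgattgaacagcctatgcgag
Trbj2-7 (chr6:41543782-41543856, plus strand): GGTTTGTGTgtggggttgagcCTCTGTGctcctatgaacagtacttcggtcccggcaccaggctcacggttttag
Trdj1 (chr14:54123110-54123188, plus strand): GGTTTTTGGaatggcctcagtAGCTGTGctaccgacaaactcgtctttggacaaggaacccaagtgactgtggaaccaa
Trgj2 (chr13:19311245-19311332, minus strand): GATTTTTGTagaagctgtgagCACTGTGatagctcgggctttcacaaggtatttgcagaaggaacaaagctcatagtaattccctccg

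For the V segments, the last 20 coding bases are followed in capitals by the heptamer, then a 23-base spacer, then in capitals the nonamer. Trbv13-2 and Trbv13-3 are members of 1 family whose values in thymocytes went different ways, and Trgv2 changed most between Rag2 genotypes in its locus.
Trbv13-2 (chr6:41121813-41121871, plus strand): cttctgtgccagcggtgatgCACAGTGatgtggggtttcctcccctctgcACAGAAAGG
Trbv13-3 (chr6:41130566-41130624, plus strand): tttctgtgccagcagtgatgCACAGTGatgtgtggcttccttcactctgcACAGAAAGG
Trgv2 (chr13:19336534-19336592, minus strand): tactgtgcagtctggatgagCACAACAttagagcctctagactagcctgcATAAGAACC

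The consensus letters searched at the coding end of each segment, on its own strand and within 2 bases of the annotated end, were CACTGTG for the heptamer before a J, CACAGTG for the heptamer after a V, and GGTTTTTGT and ACAAAAACC for the matching nonamers. The exact heptamer stood beside 100 of 128 Tra V, 8 of 35 Trb V, 16 of 60 Tra J, 1 of 14 Trb J and 3 of 4 Trg J segments. Of the segments printed above, Trbv13-2, Trbv13-3 and Trgj2 matched all 7 heptamer letters, Trbj2-7 matched 6, Trdj1 5, and Trbj1-7, Trbj2-6 and Trgv2 4. A match of letters is a description and not a measure of recombination.

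**Figure D1:**
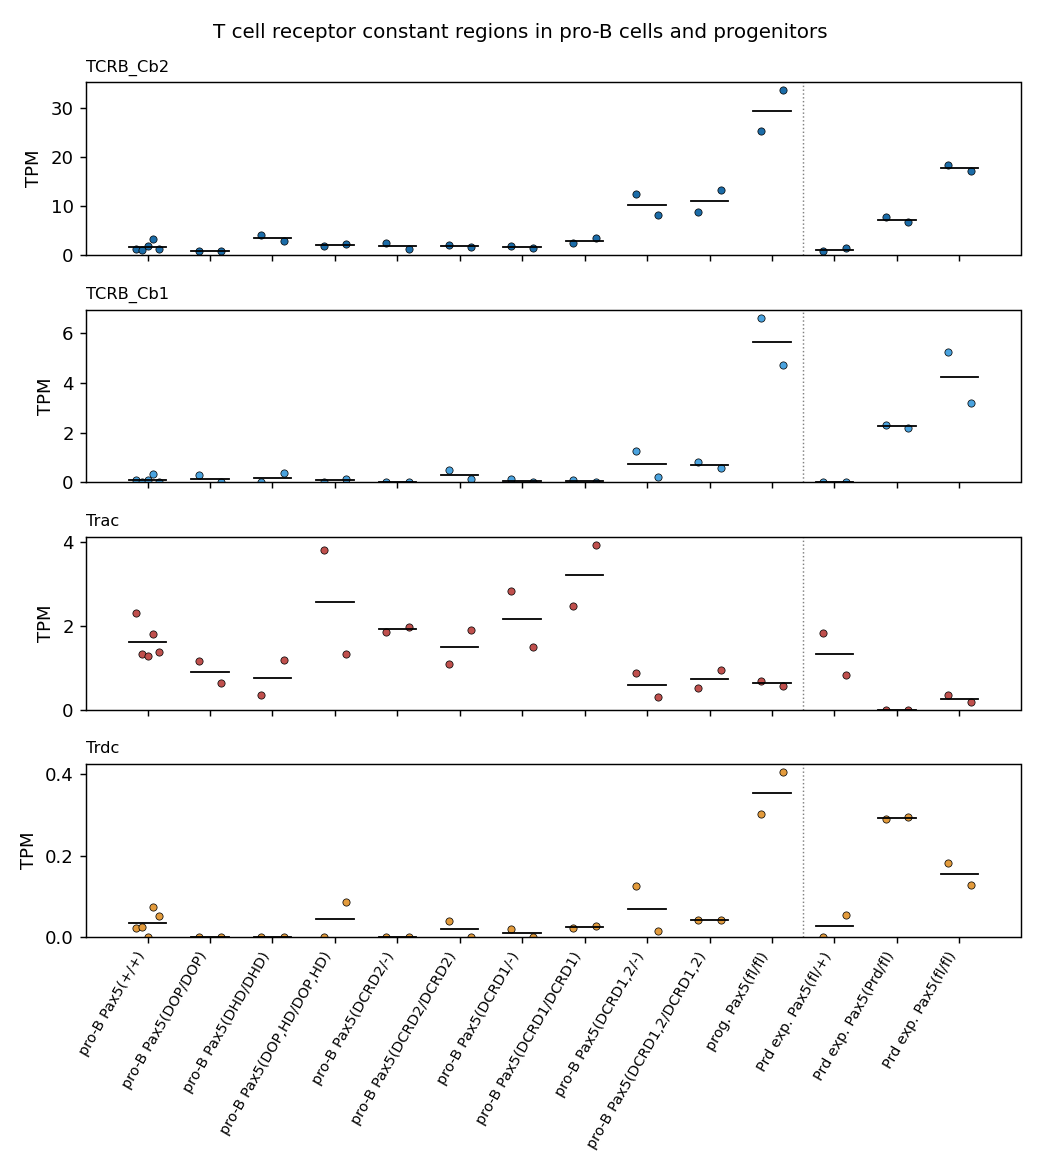
TPM of the β constant region rows TCRB_Cb1 (Trbc1) and TCRB_Cb2 (Trbc2) of the α constant region Trac and of the δ constant region Trdc in each of the 31 bone marrow samples, by genotype, with 1 point per sample, a bar at the mean of each group and a dotted line before the Prd experiment. TCRB_Cb2 was between 8.16 and 33.5 TPM in the DCRD1,2 and progenitor samples and at most 4.02 TPM in every other sample outside the Prd experiment, while the highest Trac values were in cells of the pro-B gate, whose lowest overlapped those of DCRD1,2 and progenitor samples.

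Few segments left any reads in the bone marrow tables. Of the 259 members, 179 were at 0 in all 31 samples, 38 had 1 to 3 reads over all samples together, and 39 reached 1 TPM in at least 1 sample. All members together held 5898 reads, of which 4349 fell on the 2 β constant regions and 483 on Trac. The remainder was spread thinly, with 360 reads on Trb V, 292 on Trb J and 8 on Trb D rows, 259 on Tra V, 116 on all Trd rows and 16 on all Trg rows. The most read segments were Trav2 (174 reads over all samples), Trbv13-2 (148), TCRB_Jb2-S7 (111) and Trbv1 (73), while no Tra J row had more than 2 reads (Traj37) and the most read Trd V row, Trdv2-2, had 4. Members that passed the filter of 1 TPM in at least 1 sample numbered 7 in the comparison of octapeptide and homeodomain mutants, 33 in that of the C-terminal mutants and 23 in the Prd experiment, and only these were tested. A short row passes that filter with very few reads, since 1 read on TCRB_Jb2-S7 (46 bases) in Pax5(DCRD1/-) replicate 1 already gave 1.61 TPM. A row without reads in a group passed it only through other samples, so a call against such a group is not independent of the filter.

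Trbc2 (TCRB_Cb2, chr6:41546730-41548352, plus strand) and Trbc1 (TCRB_Cb1, chr6:41538218-41539881, plus strand) encode the alternative constant regions of the β chain. The rows cover the whole gene, introns included. TCRB_Cb2 was the only constant region row with reads in all 31 samples. In the 5 Pax5(+/+) samples it lay at 1.17, 1.00, 1.84, 3.20 and 1.23 TPM (22, 17, 37, 74 and 20 reads), a mean of 1.69 ± 0.903 TPM (SD, n = 5). Replicate 4 was highest and the others lay close together.

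Without both C-terminal domains TCRB_Cb2 stood clear of that range. It was at 12.4 and 8.16 TPM in Pax5(DCRD1,2/-) (10.3 ± 2.98, SD, n = 2) and at 8.75 and 13.2 TPM in Pax5(DCRD1,2/DCRD1,2) (11 ± 3.18, SD, n = 2), and neither pair overlapped Pax5(+/+). On the log2(TPM + 0.1) scale the rise was 2.00 (SE 0.37, limma adjusted p = 0.0013) and 2.10 (SE 0.37, adjusted p = 0.00095). In Vav-Cre Pax5(fl/fl) progenitors it reached 25.3 and 33.5 TPM (316 and 208 reads), which was 4.57 higher than in Pax5(+/+) on that scale (SE 0.34, limma adjusted p = 1.5e-07). Against Pax5(DCRD1,2/-), which shares the progenitors' gate but not their read length, it was 2.56 higher in progenitors (SE 0.50, limma adjusted p = 0.0125). That call was lost without progenitor replicate 2.

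With only 1 domain missing the values stayed near those of Pax5(+/+), less so in Pax5(DCRD1/DCRD1). TCRB_Cb2 was at 2.49 and 1.28 TPM in Pax5(DCRD2/-), 2.10 and 1.64 TPM in Pax5(DCRD2/DCRD2), and 1.78 and 1.4 TPM in Pax5(DCRD1/-). These pairs lay inside the Pax5(+/+) range, with limma adjusted p-values of 0.87, 0.91 and 0.38. In Pax5(DCRD1/DCRD1) it was at 2.45 and 3.44 TPM, which overlaps Pax5(+/+) replicate 4, and the fitted rise of 1.29 (SE 0.34, limma adjusted p = 0.032) was lost without the read-length term (adjusted p = 0.25). The direct comparison of Pax5(DCRD1,2/-) with Pax5(DCRD1/-) gave a rise of 2.60 (SE 0.37, limma adjusted p = 0.0013), across different gates.

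The octapeptide and homeodomain mutants, sorted by the Pax5(+/+) gate, did not part from their 2 Pax5(+/+) controls (replicates 3 and 4) for TCRB_Cb2. The values were 0.760 and 0.926 TPM in Pax5(DOP/DOP), 4.02 and 2.82 TPM in Pax5(DHD/DHD), and 1.80 and 2.28 TPM in Pax5(DOP,HD/DOP,HD). The Pax5(DOP/DOP) pair lay below all 5 Pax5(+/+) samples, but the change of -1.43 (SE 0.41) had a limma adjusted p of 0.14. The other 2 genotypes had adjusted p-values of 0.73 and 0.86.

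Trbc1 followed at lower levels. TCRB_Cb1 had 12 reads over the 5 Pax5(+/+) samples (0.104, 0, 0.0968, 0.338 and 0 TPM) and 115 reads over the 2 progenitor samples (6.63 and 4.71 TPM), a rise of 5.49 (SE 0.71, limma adjusted p = 3.4e-05). Against Pax5(DCRD1,2/-), with 1.28 and 0.235 TPM, the progenitors were 4.28 higher (SE 1.06, limma adjusted p = 0.039). The row passed the filter only through progenitors and Pax5(DCRD1,2/-) replicate 1, so these p-values are not independent of the filter. Neither Pax5(DCRD1,2/-) nor Pax5(DCRD1,2/DCRD1,2), at 0.815 and 0.576 TPM, passed the test against Pax5(+/+) (limma adjusted p = 0.30 and 0.21). The split of reads between the 2 constant regions is uncertain in part, because 283 of 1615 windows of 50 bases in Trbc1 (17.5%) also occur in Trbc2 and only uniquely mapped reads were kept. Their first exons of 375 bases differ at 1 base (99.7% identical), while the exons of 107 bases differ at 15.

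The α constant region took the other direction. Trac (chr14:54220521-54224206, plus strand) was at 2.30, 1.33, 1.29, 1.80 and 1.39 TPM in Pax5(+/+) (1.62 ± 0.431, SD, n = 5) and at 0.694 and 0.559 TPM in progenitors, where 7 reads were left in all. The groups did not overlap, and the change was -1.25 (SE 0.46, limma adjusted p = 0.047). This call was kept in 2 of 15 other settings. Pax5(DCRD1,2/-) with 0.879 and 0.299 TPM and Pax5(DCRD1,2/DCRD1,2) with 0.512 and 0.940 TPM also lay below the Pax5(+/+) range, with limma adjusted p-values of 0.062 and 0.16. Within the pro-B gate, Pax5(DOP/DOP) with 1.16 and 0.625 TPM and Pax5(DHD/DHD) with 0.341 and 1.18 TPM lay below the Pax5(+/+) range too, so low Trac values were not particular to the Lin- Ly6D+ gate. Other genotypes of the pro-B gate reached 3.81 TPM in Pax5(DOP,HD/DOP,HD) replicate 1 and 3.94 TPM in Pax5(DCRD1/DCRD1) replicate 2.

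The δ constant region Trdc (chr14:54142851-54148868, plus strand) never reached 1 TPM and was not tested. It had 8 reads over the 5 Pax5(+/+) samples, 15 over the 2 progenitor samples (9 and 6), and 22 and 34 reads over Vav-Cre Pax5(fl/fl) and Vav-Cre Pax5(Prd/fl) in the Prd experiment. Its 3′ end overlaps Trdv5 on the opposite strand.

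**Figure D2:**
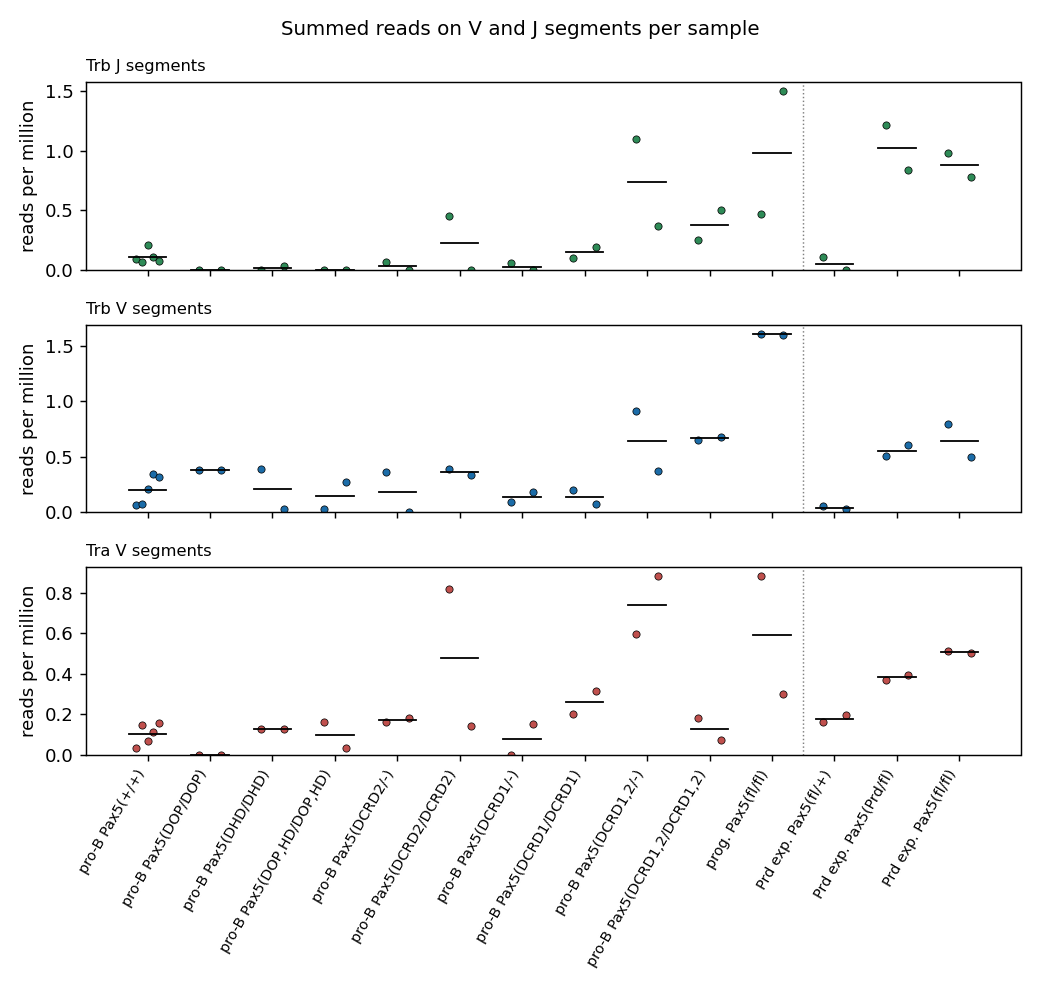
RPM (reads scaled to the assigned reads of the sample, without regard to length) summed over the Trb J rows, the Trb V rows and the Tra V rows in each of the 31 bone marrow samples, by genotype, with 1 point per sample, a bar at the mean of each group and a dotted line before the Prd experiment. The Trb V sum was 1.60 RPM in progenitors and 0.201 in Pax5(+/+), and the Trb J sum was 0.982 against 0.114.

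Among the β locus rows upstream of the constant regions the reads were few, and the sum of the V rows was highest in progenitors. The Trb V rows summed to 1.60 ± 0.00869 RPM in progenitors (SD, n = 2; 47 reads) and 0.201 ± 0.131 in Pax5(+/+) (SD, n = 5; 30 reads), with 0.641 ± 0.384 in Pax5(DCRD1,2/-) and 0.667 ± 0.0207 in Pax5(DCRD1,2/DCRD1,2) (SD, n = 2 each). The Trb J rows summed to 0.982 ± 0.728 in progenitors (24 reads), 0.735 ± 0.518 in Pax5(DCRD1,2/-) (50 reads) and 0.114 ± 0.0547 in Pax5(+/+) (17 reads), and to 1.02 ± 0.266 in Vav-Cre Pax5(Prd/fl) (72 reads). The J values of progenitors, Pax5(DCRD1,2/-) and Vav-Cre Pax5(Prd/fl) overlapped. Pax5(DOP/DOP) and Pax5(DOP,HD/DOP,HD) had no Trb J read and Pax5(DHD/DHD) had 1.

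In progenitors, 9 members passed the test as higher and 1 as lower than in Pax5(+/+), of 33 tested, where 34.9% of all 13854 genes were called (18.8% higher and 16.1% lower). The 9 were both β constant regions, TCRB_Jb2-S1, TCRB_Jb1-S2, Trbv24, Trbv13-2, Trbv1, Trbv12-2 and Trav2, and the 1 was Trac. The share of members called (10 of 33) is therefore near that of all genes. Their median log2 change was 2.43, but 25 of the 33 had a group at 0 reads, and with those set to the bound that 3 reads allow, or to no change, the median was 0, against 0.0025 over all genes.

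Trbv12-2 (chr6:41118851-41119364, plus strand), a V segment upstream of Trbv13-2, had no read in any sample of the pro-B gate and 2 and 3 reads in Pax5(DCRD1,2/-), 3 and 3 in Pax5(DCRD1,2/DCRD1,2), and 3 and 1 in progenitors. Against the 3 reads over the group that a count of 0 allows, it was at least 3.40-fold, 5.33-fold and 6.73-fold higher than in Pax5(+/+) (limma adjusted p = 0.0061, 0.0015 and 0.00014). Each of these 6 samples held at least 1 read and each Pax5(+/+) sample held none. The row exceeded 1 TPM only in progenitor replicate 1 (1.01 TPM). It was therefore tested only because of a group in which it was high, and the p-values are not independent of that filter.

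Trbv13-2, a V segment of the Vβ8 family, had 1, 2, 3, 1 and 1 reads in Pax5(+/+), 11 and 9 in Pax5(DCRD1,2/-) and 15 and 9 in progenitors (5.73 and 6.91 TPM). Pax5(DOP/DOP) replicate 1, with 13 reads, lay as high by reads as the altered groups. The change was 3.82 in progenitors (SE 1.14, limma adjusted p = 0.018) and 1.94 in Pax5(DCRD1,2/-) (adjusted p = 0.30). TCRB_Jb2-S1 (Trbj2-1) had 3 reads in each progenitor sample and 0 in Pax5(+/+), at least 10.1-fold (limma adjusted p = 3.0e-05), and Trbv24 had 2 and 3 reads, at least 8.41-fold (adjusted p = 0.00016). Trbv24 exceeded 1 TPM only in progenitor replicate 2 (2.26 TPM), so it was tested only because of the group in which it was high. Trbv1 (chr6:40891229-40891885, plus strand) had 7 and 2 reads against 7 over the 5 Pax5(+/+) samples (3.29, SE 1.02, limma adjusted p = 0.022), and TCRB_Jb1-S2 had 2 reads against 0, too few for a fold.

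Against Pax5(DCRD1,2/-), 4 of 33 members were higher in progenitors and 0 lower, where 3.65% of all genes were called (2.24% higher). They were the 2 β constant regions, TCRB_Jb2-S1 (at least 4.95-fold) and Trbv24 (at least 4.13-fold), both without reads in Pax5(DCRD1,2/-). The count moved from 1 to 7 when progenitor replicate 2 or replicate 1 was left out.

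Pax5(DCRD1,2/-) had 3 of 33 members higher than Pax5(+/+) and 0 lower, where 23.5% of all genes were called (9.3% higher), and Pax5(DCRD1,2/DCRD1,2) had 2 higher and 0 lower, where 24.1% were called (9.95% higher). TCRB_Cb2 and Trbv12-2 were called in both. The other was Trav2 (chr14:52567198-52568051, plus strand), a V segment at the 5′ end of the α locus, with 18 and 35 reads in Pax5(DCRD1,2/-) and 1, 1, 2, 0 and 1 in Pax5(+/+) (4.10, SE 1.04, limma adjusted p = 0.010). Without Pax5(+/+) replicate 4 or Pax5(DCRD1,2/-) replicate 2 that adjusted p was 0.106 or 0.061. Trav2 had only 2 and 2 reads in Pax5(DCRD1,2/DCRD1,2) and 10 and 2 in progenitors, and the change in progenitors was 2.68 (SE 0.95, limma adjusted p = 0.041). Against Pax5(DCRD1/-), Pax5(DCRD1,2/-) had 2 members higher and 0 lower, TCRB_Cb2 and Trbv12-2 (at least 1.5-fold), where 3.57% of all genes were called (1.02% higher).

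No member passed the limma test in Pax5(DCRD2/-), Pax5(DCRD1/-) or Pax5(DCRD2/DCRD2), where 0.967%, 10.9% and 0.115% of all genes were called. At an unadjusted p under 0.05 there were 0, 0 and 1 members, and edgeR and DESeq2 on recovered reads called 0 in each. Pax5(DCRD1/DCRD1) had 1 member higher, TCRB_Cb2 as above, and 0 lower, where 7.75% were called (3.64% higher). In Pax5(DOP/DOP), Pax5(DHD/DHD) and Pax5(DOP,HD/DOP,HD), 1 of 7 members was lower and 0 higher, where 0.485%, 0.639% and 1.22% of the 12996 genes were called (0.192%, 0.308% and 0.485% lower). It was TCRB_Jb2-S7 (Trbj2-7) in all 3, with 6 and 4 reads in the shared controls and 0 in all 6 mutant samples, at least 3.31-fold, 3.65-fold and 3.15-fold lower (limma adjusted p = 0.040, 0.034 and 0.024). The 3 calls had the same 2 controls and the same fitted change of -6.34 (SE 0.91), so they are 1 result and not 3. The row passed the filter only through those controls, in which it was high. These calls were lost in edgeR and DESeq2 on recovered reads and without any 1 of the samples compared.

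Several V and J rows were high in 1 library only. Trav7-6 had 27 reads, all in Pax5(DCRD2/DCRD2) replicate 1, which also held 13 reads of Trbv2, 8 of Trgj2 and 15 of TCRB_Jb2-S7. Trbv13-3 had 9 reads, all in Pax5(DOP/DOP) replicate 2, and Trgv2 had 4, all in Pax5(DOP,HD/DOP,HD) replicate 2. Pax5(DCRD1,2/-) replicate 1 held 9 reads of Trbv16, 13 of TCRB_Jb2-S6 and 9 of TCRB_Jb1-S5, and replicate 2 had none of these. In turn, replicate 2 held 14 reads of TCRB_Jb2-S3 where replicate 1 had none. A group mean of these rows rests on 1 sample.

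The other TCRB_ rows stayed near the lower limit. TCRB_Db1 had 6 reads over all 31 samples and TCRB_Db2 2, and Trdd2 had 2 and Trdd1 none. TCRB_Jb1-S6 had 13 reads, TCRB_Jb1-S3 9, TCRB_Jb1-S4 2 and TCRB_Jb2-S5 none. TCRB_Vb14, taken by its name for Trbv31 although its row length does not match that gene's span, had 11 reads, and TCRB_Eb, named for the β locus enhancer, had 8.

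In the Prd experiment the control retained 1 Pax5 allele and was sorted as pro-B cells, so genotype and gate cannot be told apart in either comparison with it, while Vav-Cre Pax5(Prd/fl) and Vav-Cre Pax5(fl/fl) shared a gate. TCRB_Cb2 was at 0.757 and 1.47 TPM in Vav-Cre Pax5(fl/+), 7.73 and 6.76 TPM in Vav-Cre Pax5(Prd/fl), and 18.3 and 17.2 TPM in Vav-Cre Pax5(fl/fl). The 3 pairs did not overlap. It rose by 2.66 in Vav-Cre Pax5(Prd/fl) (SE 0.29, limma adjusted p = 0.00079) and by 3.95 in Vav-Cre Pax5(fl/fl) (SE 0.29, adjusted p = 0.00018) against the shared Vav-Cre Pax5(fl/+) control. The difference of Vav-Cre Pax5(Prd/fl) from Vav-Cre Pax5(fl/fl), -1.28 (SE 0.29), had a limma adjusted p of 0.09.

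TCRB_Cb1 had no read in Vav-Cre Pax5(fl/+), 48 and 64 reads in Vav-Cre Pax5(Prd/fl) and 163 and 97 in Vav-Cre Pax5(fl/fl), at least 37.4-fold and 72.8-fold higher (limma adjusted p = 0.00027 and 0.00015). The row passed the filter only through the altered genotypes, in which it was high, so these p-values are not independent of the filter. Trac, with 25 and 11 reads in Vav-Cre Pax5(fl/+), had none in Vav-Cre Pax5(Prd/fl), at least 12-fold lower (limma adjusted p = 0.0053), and 6 and 3 reads in Vav-Cre Pax5(fl/fl) (-1.93, SE 0.66, adjusted p = 0.057). The fitted changes of the β and α constant regions thus had opposite signs in the Prd experiment, as they did between progenitors and Pax5(+/+). For Trac only the fall in Vav-Cre Pax5(Prd/fl) passed the test in this experiment. There Trac exceeded 1 TPM only in Vav-Cre Pax5(fl/+) replicate 1 (1.83 TPM). It was therefore tested only because of the group in which it was high, and that p-value is not independent of the filter. Its call in progenitors was lost in edgeR and DESeq2 on recovered reads (adjusted p = 0.142 and 0.204).

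Of 23 members tested, 8 were higher and 1 lower in Vav-Cre Pax5(Prd/fl) than in Vav-Cre Pax5(fl/+), where 40.7% of the 12941 genes were called (24.1% higher and 16.6% lower). In Vav-Cre Pax5(fl/fl), 10 were higher and 0 lower, where 39.9% were called (20.8% higher). The member shares of 9 and 10 in 23 are close to those of all genes. Trbv13-2 rose from no read to 7 and 17 reads in Vav-Cre Pax5(Prd/fl) (at least 8.02-fold, limma adjusted p = 0.00057) and 11 and 8 in Vav-Cre Pax5(fl/fl) (at least 5.32-fold, adjusted p = 0.00094). It too passed the filter only through the altered genotypes.

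The J rows called in the Prd experiment had no read in Vav-Cre Pax5(fl/+). They passed the filter only through the altered genotypes, in which they were high. TCRB_Jb2-S6 (Trbj2-6, printed above) had 3 and 7 reads in Vav-Cre Pax5(Prd/fl) and 5 and 5 in Vav-Cre Pax5(fl/fl), at least 3.34-fold and 2.8-fold. Trbj1-7 had 8 and 1 and then 4 and 2 reads, at least 3.01-fold and 1.68-fold. TCRB_Jb2-S2 was called in both genotypes, TCRB_Jb2-S4 in Vav-Cre Pax5(Prd/fl), and TCRB_Jb2-S1 and TCRB_Jb1-S1 in Vav-Cre Pax5(fl/fl), each on 4 to 9 reads. Trdj1 was called in Vav-Cre Pax5(Prd/fl) on 3 reads against 0, too few for a fold. Vav-Cre Pax5(fl/fl) also had Trbv1 (13 reads against 1) and Trav2 (1.11, SE 0.28, limma adjusted p = 0.020) higher. Of these, Trbv1 passed the filter only through Vav-Cre Pax5(fl/fl).

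Between Vav-Cre Pax5(Prd/fl) and Vav-Cre Pax5(fl/fl), limma called 0 of 23 members, where 1.97% of all genes were called, while 2 members had an unadjusted p under 0.05 and edgeR and DESeq2 each called 1. All members together summed to 1.56 ± 0.00704 RPM in Vav-Cre Pax5(fl/+), 8.90 ± 0.850 in Vav-Cre Pax5(Prd/fl) and 17.7 ± 2.61 in Vav-Cre Pax5(fl/fl) (SD, n = 2 each). The progenitor samples of the same fl/fl genotype outside this experiment summed to 26.4 ± 2.57 and Pax5(+/+) pro-B cells to 2.29 ± 0.872 (SD, n = 2 and n = 5), a set aligned alike but sequenced apart.

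**Figure D3:**
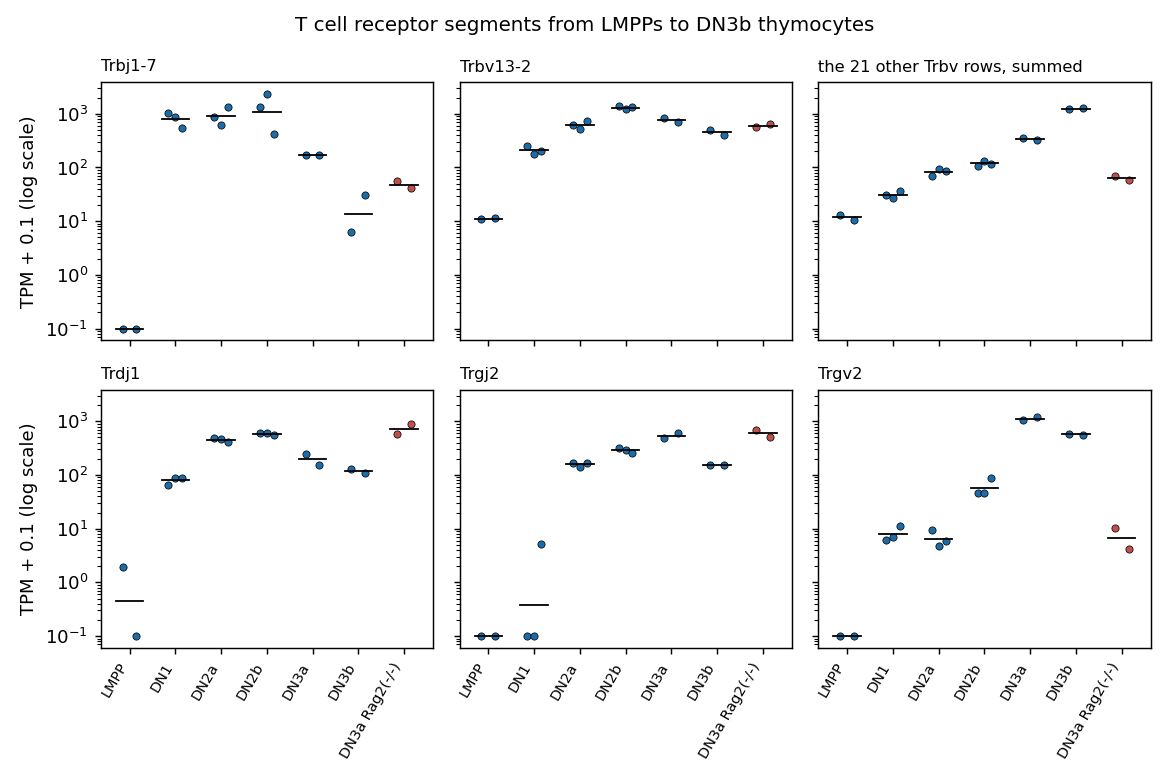
TPM + 0.1 on a log axis of Trbj1-7, Trbv13-2, the sum of the 21 other Trb V rows, Trdj1, Trgj2 and Trgv2 in each sample from LMPP to DN3b (wild type, blue) and in Rag2(-/-) DN3a cells (red), with 1 point per sample and a bar at the mean of the log values. Trbv13-2 was at 174 TPM or more in every sample from DN1 onwards, whereas Trgv2 was at most 10.9 TPM up to DN2a and stood at 1066 and 1192 TPM in wild type DN3a cells.

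In thymocytes, whose values were aligned and scaled apart from those of the bone marrow tables, many of the same rows had far higher values. Segments of the 4 loci reached them at different stages. The deposited values carried no read counts, and a TPM of 0 is given as listed at 0. Comparisons were made between successive stages, which share samples. The constituent genes of the receptor complex listed above moved along the same stages, with 10 of 11 higher in DN3a than in DN2b and 9 of 11 lower in DN3b than in DN3a. Of all genes, 32% were higher at the first of these steps and 39.2% lower at the second.

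In the β locus, Trbv13-2 and Trbj1-7 were already high in DN1. Trbv13-2 was at 10.9 and 11.2 TPM in LMPP, 254, 174 and 203 in DN1, 608, 513 and 719 in DN2a and 1374, 1202 and 1325 in DN2b, then 836 and 698 in DN3a and 508 and 398 in DN3b. It rose at each of the 3 first steps without overlap, by 4.22 (SE 0.17, limma adjusted p = 1.4e-09), 1.55 (SE 0.15, adjusted p = 7.0e-06) and 1.10 (SE 0.15, adjusted p = 0.00019). It then fell, with changes of -0.77 (SE 0.17, limma adjusted p = 0.0028) and -0.76 (SE 0.19, adjusted p = 0.0038), the last of which was lost after TMM rescaling (-0.39, adjusted p = 0.062).

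Trbj1-7, the last J of the first β cluster, was listed at 0 in both LMPP samples and stood at 1029, 880 and 542 TPM in DN1. It was at 853, 614 and 1358 TPM in DN2a, 1311, 2330 and 422 TPM in DN2b, 170 and 169 TPM in DN3a and 6.15 and 30.4 TPM in DN3b. The falls at the last 2 steps were -2.68 (SE 0.66, limma adjusted p = 0.0049) and -3.62 (SE 0.72). TPM of so short a row cannot be set against that of a V row, as a read is longer than the row.

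Most other Trb V segments came up late. Trbv1 stayed between 2.11 and 5.86 TPM from LMPP to DN2b, was at 28.7 and 23.6 TPM in DN3a and at 179 and 178 TPM in DN3b, a rise of 2.63 (SE 0.38, limma adjusted p = 1.0e-04) and then of 2.78 (SE 0.41, adjusted p = 7.6e-05). Trbv13-3, whose signal sequence matches that of Trbv13-2 in both the heptamer and the nonamer, never passed 0.930 TPM before DN3a and then reached 19.2 and 17.4 TPM in DN3a and 81.1 and 82.9 TPM in DN3b. Of the 388 windows of 50 bases in Trbv13-2, 1 also occurs in Trbv13-3. Trbv13-1, at most 1.15 TPM up to DN2b, was at 37.5 and 35.3 and then 160 and 138 TPM.

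Summed over the 21 Trb V rows other than Trbv13-2, the level was 13.1 and 10.5 TPM in LMPP, 26.8 to 36.2 in DN1, 70.3 to 95.2 in DN2a and 108 to 131 in DN2b, then 360 and 331 in DN3a and 1242 and 1260 in DN3b. Each stage lay above the one before it without overlap. Of 20 Trb V members tested, 14 were higher and 1 lower (Trbv13-2) in DN3a than in DN2b, and 7 higher and 1 lower in DN3b than in DN3a. The shares of all genes were 32% higher and 14.1% lower at the DN3a step, and 13.9% and 39.2% at the DN3b step. Trbv16 and Trbv12-2 rose earlier, with 4.20 to 7.08 and 11.4 to 18.3 TPM in DN1 and 20.3 to 33.7 and 58.2 to 81.2 TPM in DN2b.

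In the γ locus Trgj1 and Trgj2 were high from DN2a and Trgv2 from DN3a, while the other 2 J rows were low in DN2a. Trgj4 was at 12.1, 4.64 and 3.92 TPM in DN2a and 48.0, 37.4 and 33.6 TPM in DN2b. Trgj3 was at 17.6 TPM or less in every sample. Trgj2, a J segment, was listed at 0 in both LMPP samples and 2 of 3 DN1 samples, stood at 169, 143 and 167 TPM in DN2a and at 497 and 595 TPM in DN3a, and dropped to 155 and 151 TPM in DN3b. Trgv2 remained at 4.58 to 10.9 TPM in DN1 and DN2a, was at 46.0, 45.3 and 88.6 TPM in DN2b (3.16, SE 0.35, limma adjusted p = 2.5e-05) and at 1066 and 1192 TPM in DN3a (4.30, SE 0.39, adjusted p = 2.1e-06). Trgj1 and Trgj4 fell between DN3a and DN3b, with changes of -3.49 (SE 0.55) and -2.91 (SE 0.40). Together the 5 Trg rows summed to 1863 and 2136 TPM in DN3a and 777 and 740 TPM in DN3b.

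In the δ locus, Trdj1 and Trdd2 were up before DN3 and lower in DN3a, a fall that passed the test for Trdd2 but not for Trdj1. Trdj1 was at 1.84 and 0 TPM in LMPP, 65.7, 88.1 and 88.1 in DN1, 484, 477 and 404 in DN2a, 607, 618 and 549 in DN2b, and 244 and 156 in DN3a. The size of its fall depends on which deposited value is used, as the upper values were 808, 829 and 739 in DN2b and 569 and 415 in DN3a. Trdd2 was listed at 0 in LMPP, at 6.30 to 11.2 TPM in DN1, 79.1 to 142 in DN2a, 71.2 to 99.1 in DN2b, and 23 and 10.1 in DN3a, with a rise of 3.64 (SE 0.31, limma adjusted p = 1.9e-06) at DN2a and a change of -2.43 (SE 0.35, adjusted p = 0.00011) at DN3a. Trdv5, in contrast, was highest in DN3a at 117 and 105 TPM. Trdd1 was at 0 in every stage but DN3a (25.1 and 0 TPM) and DN3b (16.8 and 19.1 TPM).

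The α locus remained low. All 164 Tra rows summed to 2.31 and 3.44 TPM in LMPP, 23.5 to 27.6 in DN2b, 111 and 92.0 in DN3a and 83.5 and 73.6 in DN3b. Trac was at most 2.64 TPM up to DN2b, then 7.90 and 3.61 TPM in DN3a (4.19, SE 1.03, limma adjusted p = 0.0049) and 22.3 and 18.8 TPM in DN3b. Trav17, a V segment, was at 29.9 and 30.3 TPM in DN3a and 3.29 and 5.00 TPM in DN3b. Trav2, the most read Tra V segment of the bone marrow tables, lay between 0 and 3.23 TPM in all wild type stages. Among the Tra J rows, Traj58 was called in DN3b, at 4.39 and 1.67 TPM, and was listed at 0 in DN3a.

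Counted over 56 members tested of 13284 genes, 14 were higher and 1 lower in DN1 than in LMPP (18.2% of all genes called, 6.68% higher and 11.5% lower). The lower member was Trbv5, a V segment named here because it was the only one, at 1.92 and 1.61 TPM in LMPP and at most 0.591 TPM in DN1 (-3.29, SE 0.77, limma adjusted p = 0.0079). DN2a against DN1 gave 14 higher and 2 lower, Trdv1 and Trav13-4-dv7 (34%, 10.4% and 23.6%), and DN2b against DN2a 8 higher and 0 lower (17.8%, 9.82% higher). DN3a against DN2b gave 26 higher and 5 lower, Trav13n-4, Trav14n-3, Trbj1-7, Trdd2 and Trbv13-2 (46.1%, 32% and 14.1%), and DN3b against DN3a 8 higher and 7 lower (53.1%, 13.9% and 39.2%). The median change of the members in DN3a against DN2b was 1.95, and 1.88 without those listed at 0 in either group, where the median of all genes was 0.294. TMM rescaling took the median of all genes to 0.024 at that step, and from -0.419 to -0.067 at DN3b, and the members' medians were then 1.73 and 1.04.

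**Figure D4:**
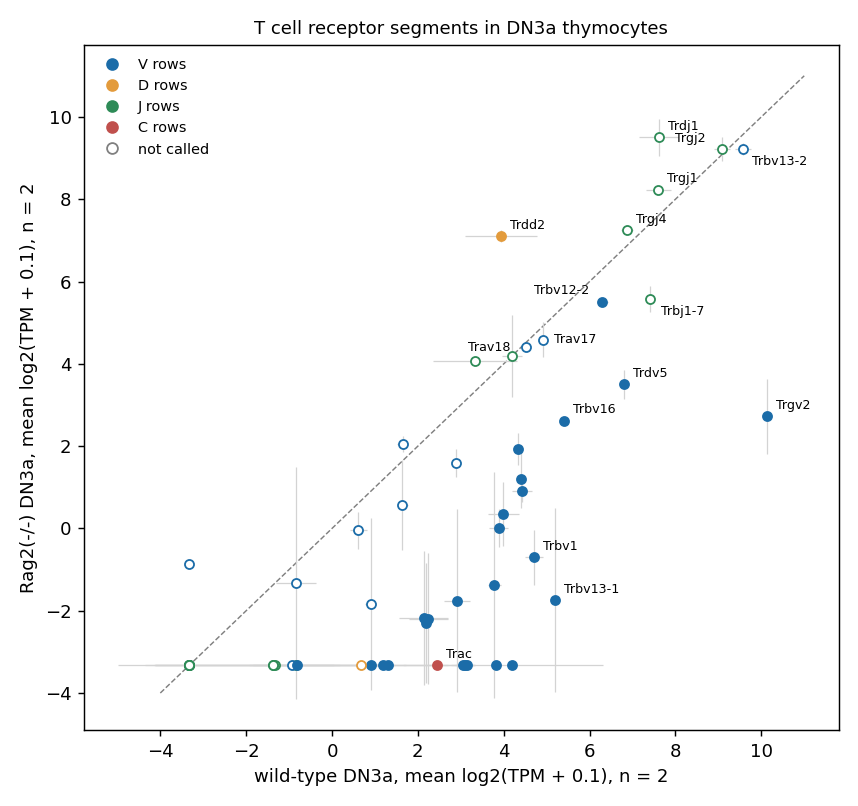
Mean log2(TPM + 0.1) of each of the 56 tested members in Rag2(-/-) DN3a cells (vertical axis) against wild type DN3a cells (horizontal axis), coloured by segment type, filled where called, with grey bars of 1 SD (n = 2 each) and a dashed line of equality. Filled V points lie below the line, Trbv13-2 lies close to it, and Trdd2 is the only filled point above it.

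The Rag2 row was at 32.5 and 38.6 TPM in Rag2(-/-) and 44 and 68.2 TPM in wild type DN3a cells. A value over the whole gene does not single out the deleted part, so it checks nothing, and the same holds for the Pax5 row in fl/fl progenitors. DN3a cells of Rag2(-/-) mice, which cannot recombine, had 1 member higher and 26 lower than wild type DN3a cells, of 56 tested, where 25.6% of all genes were called (6.81% higher and 18.8% lower). The 26 of 56 lower stand against that 18.8%. The members' median change was -2.39, and -1.82 without those listed at 0 in either group, against -0.179 over all genes (-2.05 and -0.015 after TMM rescaling). The 3 genes called of the receptor complex list were all lower, of 11 tested, while Cd3e was at 1983 and 2010 TPM in wild type and 2180 and 2366 TPM in Rag2(-/-).

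Loss of Rag2 went with low values of nearly all Trb V segments that rose late, and of Trgv2 and Trdv5. Late-rising Tra V rows went both ways. Trav18 was at 21.6 and 20.6 TPM in Rag2(-/-) and 23.9 and 21.7 TPM in wild type DN3a cells. Trav15-2-dv6-2 was at 1.55 and 2.05 TPM against 23.9 and 19.1 TPM. All 20 tested Trb V members had a negative change, with a median of -4.46, and 18 were called as lower, 0 as higher, where 18.8% of all genes were lower. Trbv1 was at 0.343 and 0.754 TPM in Rag2(-/-) against 28.7 and 23.6 TPM (-5.41, SE 0.41, limma adjusted p = 3.6e-06), and Trbv13-3, Trbv12-1, Trbv20, Trbv29 and Trbv19 were listed at 0 in both Rag2(-/-) samples. Trgv2 was at 10.3 and 4.15 TPM against 1066 and 1192 TPM (-7.41, SE 0.43, limma adjusted p = 8.3e-07). Trdv5 was at 9.39 and 13.4 TPM against 117 and 105 TPM (-3.29, SE 0.25, limma adjusted p = 3.6e-06), and Trac was listed at 0 in both.

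The 2 Trb V members not called were Trbv13-2 and Trbv23. Trbv13-2 was at 558 and 637 TPM in Rag2(-/-) and 836 and 698 TPM in wild type (-0.36, SE 0.19, limma adjusted p = 0.18), groups that did not overlap. Trbv23 changed by -1.07 (SE 0.90, adjusted p = 0.41). Trbv12-2, at 47.4 and 43.6 against 84.1 and 73.7 TPM, changed by the least of those called (-0.79, SE 0.25, limma adjusted p = 0.036), and that call was lost after TMM rescaling and without any 1 of the 4 samples.

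No J row was called in either direction between the Rag2 genotypes, and of the D rows 1 was. Trdd2 was at 127 and 148 TPM in Rag2(-/-) against 23 and 10.1 TPM (3.16, SE 0.38, limma adjusted p = 0.00011), and was the 1 member called higher. Trdj1 was at 585 and 906 TPM against 244 and 156 TPM, groups that did not overlap, with a change of 1.90 (SE 0.85, limma adjusted p = 0.12). Trgj2 (692 and 517 TPM), Trgj1 (304 and 299 TPM) and Trgj4 (161 and 145 TPM) had wild type values of 497 and 595, 169 and 224, and 125 and 109 TPM, with limma adjusted p-values of 0.97, 0.43 and 0.51. Trbj1-7 was at 56.0 and 41.1 TPM against 170 and 169 TPM, a change of -1.82 (SE 0.72, limma adjusted p = 0.080). In the α locus Trav17 was at 19.5 and 29.4 TPM against 29.9 and 30.3 TPM (-0.33, SE 0.61, adjusted p = 0.74).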

How the data were processed

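The members and gene lists were chosen with earlier results of these data known. RNA-seq was measured on poly(A) RNA of FACS-sorted cells in 48 of the 71 samples. For the 31 pro-B and progenitor samples the authors trimmed reads to 50 bases, aligned unique reads to mm10 (STAR 2.4.2a), counted reads per gene and deposited TPM. Raw counts deposited beside TPM in 8 tables, those of 1 sample repeated in several, were used to check the unit. Of the TPM tables, 8 carry no gene names and were read in the row order of a named one. Dividing each table by its smallest step gave whole reads, within 0.001 of a read, for 100.0% of the low values tested, so reads were recovered. For the 17 lymphoid samples (mm9, TopHat 1.4.1) the authors deposited 2 TPM values per gene with no label, treated here as a score. The lower was used, the upper was an alternative, and an exact 1 was read as 0.

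Each comparison was fitted with limma 3.58.1 (trend, R 4.3.3) on log2(TPM + 0.1) over genes that exceeded 1 TPM in any sample fitted, with Benjamini-Hochberg adjustment and a threshold of 0.05. Octapeptide and homeodomain mutants were fitted with Pax5(+/+) replicates 3 and 4 (8 samples), C-terminal mutants and progenitors with all Pax5(+/+) samples and a read-length term (19 samples), the Prd experiment alone (6 samples) and the lymphoid samples alone (17 samples). Fold changes on this scale understate changes of low genes. Alternatives were a pseudocount of 1, no filter, at least 10 recovered reads, TMM rescaling, edgeR 4.0.16 and DESeq2 1.42.0 on recovered reads, no read-length term, a replicate block and each sample left out. A bound against a group without reads used 3 reads over the group and covers counting error only. The sources used here do not say that replicates were separate animals, so p-values measure the spread between these samples. Sequences were read from GRCm38 with GENCODE M21 positions. The text names constant regions, D segments and TCRB_ rows, the called members with the largest changes (up to 10 a comparison), and the 3 most read V and J segments per locus. Other members named were chosen after their values were seen. Part of the definition of the pro-B gate is not reported here.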

Additional observations from a re-analysis of the deposited data

How the results depend on the processing

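Of 156 called changes of members, 100 stayed past the threshold in every alternative run that tested them, and none reversed. Many runs left a change untested. Of the 156, 21 had a value in edgeR, 23 in DESeq2 and 34 with a minimum of 10 reads, settings not run for the lymphoid samples. A row on few reads could thus count among the 100 without those runs. The TCRB_Cb2 calls in both DCRD1,2 genotypes, in progenitors and in both Prd experiment genotypes were among the 100.

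For the number of members called, edgeR and DESeq2 on recovered reads gave 0 and 0 for each of the octapeptide and homeodomain genotypes (1 in limma), 5 and 3 for progenitors (10), 1 and 1 for Pax5(DCRD1,2/DCRD1,2) (2), 1 and 1 for Pax5(DCRD1,2/-) against Pax5(DCRD1/-) (2), 1 and 2 for progenitors against Pax5(DCRD1,2/-) (4), 5 and 5 for Vav-Cre Pax5(Prd/fl) (9), 4 and 3 for Vav-Cre Pax5(fl/fl) (10), and 1 and 1 for Vav-Cre Pax5(Prd/fl) against Vav-Cre Pax5(fl/fl) (0). Without the read-length term the counts were 5 for Pax5(DCRD1,2/-), 4 for Pax5(DCRD1,2/DCRD1,2) and 0 for Pax5(DCRD1/DCRD1). Pax5(DCRD1/DCRD1) also gave 0 with a pseudocount of 1 and with no filter, settings that gave 1 for Vav-Cre Pax5(Prd/fl) against Vav-Cre Pax5(fl/fl). TMM rescaling gave 1 for Pax5(DCRD1,2/DCRD1,2) and 1 for Pax5(DCRD1,2/-) against Pax5(DCRD1/-), a minimum of 10 reads gave 2 for progenitors against Pax5(DCRD1,2/-), and a pseudocount of 1 gave 35 for DN3b against DN3a. The cause was not tested.

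Samples with the same replicate number did not deviate together (correlations of -0.278 to 0.176 in the C-terminal set), so the numbers do not pair them. With a replicate block the counts were 1 for Pax5(DCRD1/-), 6 for Pax5(DCRD1,2/-) and 4 for Pax5(DCRD1,2/DCRD1,2). For the octapeptide and homeodomain mutants, no paired analysis was possible because their controls share no number with them.

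Leaving out 1 sample gave 0 to 0 for each octapeptide and homeodomain genotype, Pax5(DCRD2/-) and Pax5(DCRD1/-), 2 to 6 for Pax5(DCRD1,2/-), 6 to 11 for progenitors, 0 to 3 for Pax5(DCRD2/DCRD2), 0 to 2 for Pax5(DCRD1/DCRD1), 2 to 3 for Pax5(DCRD1,2/DCRD1,2), 1 to 4 for Pax5(DCRD1,2/-) against Pax5(DCRD1/-), 1 to 7 for progenitors against Pax5(DCRD1,2/-), 8 to 11 for Vav-Cre Pax5(Prd/fl), 7 to 8 for Vav-Cre Pax5(fl/fl), 0 to 3 between these, and 10 to 16, 14 to 18, 8 to 11, 24 to 30, 12 to 15 and 20 to 21 for the lymphoid steps and Rag2(-/-). Most members had under 10 reads, so a difference below a few reads was not detectable at this depth.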
